A study of Mus musculus with 8 samples.

Results

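Transcripts of 9 ligands of the tumor necrosis factor (TNF) superfamily that T cells can make were followed in donor T cells after allogeneic hematopoietic cell transplantation (HCT). The members are Tnf, Lta, Ltb, Cd40lg, Fasl, Tnfsf8, Tnfsf10, Tnfsf11 and Tnfsf14. They were taken from the deposited tables by gene symbol, a rule that uses no measured value. All 9 were found among 25078 gene rows, and all 9 were among the 12428 genes that passed the filter on low counts. Donor mice were C57BL/6, either wild type (WT) or carrying a Stat3 fl/fl allele with CD4-Cre, in which Cre under Cd4 regulatory sequences deletes Stat3 in T cells of both lineages (STAT3KO). The recipients of all groups were lethally irradiated BALB/c mice that also received T cell-depleted bone marrow, and donor cells were sorted from the spleen on day 6 as H-2Kb+ TCRβ+ CD4+ or CD8+ cells. The 4 groups (WT CD4, STAT3KO CD4, WT CD8, STAT3KO CD8) had 2 libraries each. Each library pooled cells of several recipients, and the ages of the mice are not given in the sources used here.

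Ligands of this family are mostly made as membrane proteins that act as trimers on a neighboring cell, and some are also shed or secreted. Their receptors fall into those with a death domain, which can start apoptosis, and those that recruit TRAF adaptors and drive NF-κB and survival or activation programs. In graft-versus-host disease, TNF and the Fas ligand are long known as effector molecules of donor T cells, and CD40 ligand is the signal by which helper T cells license B cells and dendritic cells. STAT3 is the transcription factor below receptors for IL-6, IL-21 and related cytokines.

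The libraries held between 20171396 and 23282757 counts. Stat3 mRNA in STAT3KO cells was 32.4% of the WT mean in CD4 and 30.3% in CD8 T cells. Cd4 lay between 1361 and 1602 CPM (reads of a gene per fixed number of reads, after TMM) in CD4 libraries and between 1.04 and 8.16 CPM in CD8 libraries, and the T cell marker list (Cd3d, Cd3e, Cd3g, Cd2, Cd5, Lck) summed to 3259 to 4391 CPM by column total. In every group the macrophage gene C1qa was higher in replicate 2 than in replicate 1 (13.3 to 22.2 against 1.04 to 3.10 CPM). Of the B cell genes, Cd79a, Ms4a1 and Blnk were each at or below 0.337 CPM in every library, while Cd79b reached 2.47 CPM in CD4 and 12.9 CPM in CD8 libraries and Cd22 lay between 25.3 and 168 CPM. CPM of single genes are scaled by TMM (trimmed mean of M values) and sums over marker lists by column total. RPKM are reads scaled to exon length and library size. The RNA is from bulk cells, so fewer cells of a type that makes a ligand and less RNA of it per cell cannot be told apart. With 2 pools a group, edgeR p-values rest on a spread between pools that was estimated over all 8 libraries and moderated across genes. Any shift between the replicate numbers is left in that spread.

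The ligand repertoire differed in its order between CD4 and CD8 T cells. On the RPKM scale, which allows levels of different genes to be compared, Ltb ranked highest in all 4 groups. It encodes lymphotoxin β, which anchors lymphotoxin α at the cell surface. In CD4 T cells its RPKM was 170 and 165 for WT and 153 and 137 for STAT3KO, and in CD8 T cells it was 101 and 89.2 for WT and 139 and 88.5 for STAT3KO. It made up 31.7% of the summed RPKM of the 9 ligands in WT CD4 and 47.4% in WT CD8 T cells. Ranks and shares between genes depend on the exon lengths used. The deposited lengths were 1095 bases for Ltb, 2228 for Tnfsf8 and 1250 for Cd40lg. The exons of GENCODE M21 cover 1516, 3807 and 1250 bases in the same order. The order with those lengths was not examined.

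In WT CD4 T cells, Ltb was followed by Tnfsf8 (CD30 ligand; 136 ± 21.02 RPKM, SD, n = 2) and Cd40lg (CD40 ligand; 121 ± 9.84), whose libraries overlapped. Next came Tnfsf14 (LIGHT) at 28.6 RPKM, Tnfsf11 (RANKL) at 24.0, Fasl at 22.3 and Tnf at 19.8, and none of these neighbors differed beyond their spread. Tnfsf10 (TRAIL) at 7.14 and Lta (lymphotoxin α) at 3.66 RPKM were lowest, without overlap. In STAT3KO CD4 T cells the order was Ltb, Cd40lg (88.7 RPKM), Tnfsf8 (68.3) and Fasl (57.2), where Tnfsf8 and Fasl overlapped. Fasl thus had rank 6 by mean RPKM in WT and rank 4 in STAT3KO CD4 T cells.

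In WT CD8 T cells, Ltb (95.0 RPKM) was followed by Fasl (53.4), then by Tnfsf14 (20.1) and Tnfsf8 (15.3), which overlapped. Tnfsf10 (6.13), Tnf (5.23) and Cd40lg (2.33) followed without overlap, and Tnfsf11 (1.64) and Lta (1.37) overlapped at the bottom. The STAT3KO CD8 order kept Ltb (114), Fasl (71.2), Tnfsf14 (19.1) and Tnfsf8 (8.46) on top. Tnf (6.79) stood above Tnfsf10 (6.19), and Cd40lg, Lta and Tnfsf11 lay between 1.40 and 1.90 RPKM with overlap between neighbors.

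**Figure D1:**
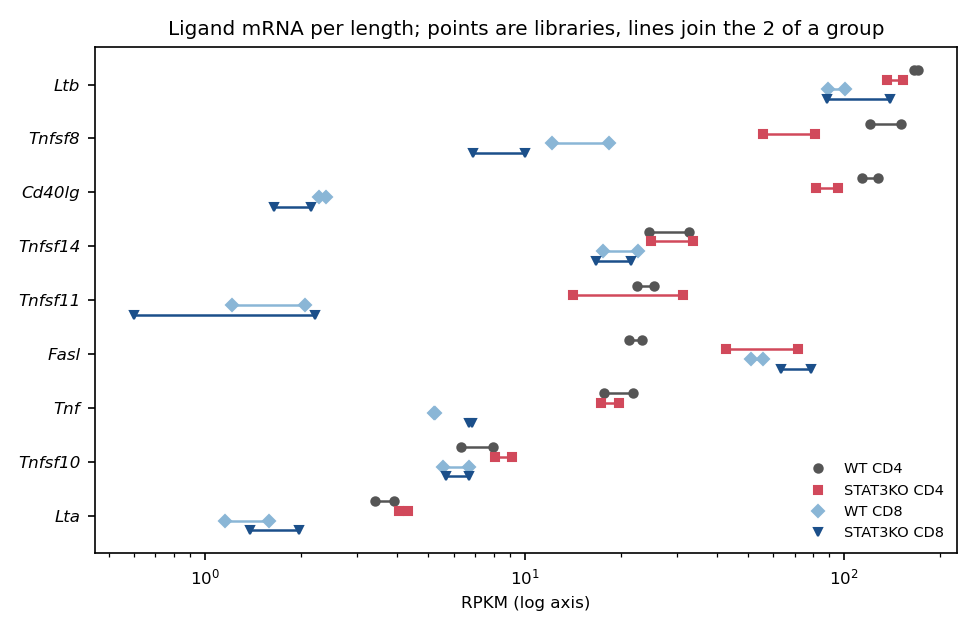
RPKM (log axis) of the 9 ligands, ordered by their mean in WT CD4 T cells; points are libraries, a line joins the 2 libraries of a group. Ltb is the highest ligand in each group, and Cd40lg and Tnfsf11 lie more than 10-fold lower in CD8 than in CD4 libraries of the same genotype in the group means.

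The question put to the ligands was then whether loss of STAT3 changed them within each lineage. In CD4 T cells, Fasl rose and was the only 1 of the 9 ligands called by the planned edgeR fit. That fit used all 8 libraries and the filter on low counts, without the replicate number as a block. The threshold was an adjusted p under 0.05 of its quasi-likelihood test over all genes. The background of calls in this comparison was 11.6% of all genes tested (6.54% higher, 5.08% lower). The median log2 fold change of the 9 ligands was -0.04, beside 0.02 over all genes tested. The WT and STAT3KO libraries did not overlap for 6 of the 9 ligands, and for 53.5% of all genes tested, so with 2 libraries a group a lack of overlap is common.

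Fasl encodes the Fas ligand, which kills Fas-bearing cells through the death domain of Fas. It had 45.5 and 40.8 CPM in the libraries of WT CD4 and 83.4 and 142 CPM in those of STAT3KO CD4 T cells. Each STAT3KO CD4 library stood above each WT CD4 library, and the STAT3KO libraries differed from each other more than the WT libraries did. The fold was 2.62 (log2 fold change 1.39, SE 0.24, adjusted p 0.0114 by edgeR), and within the replicate numbers it was 0.88 in replicate 1 and 1.80 in replicate 2 on the log2 scale. Without WT CD4 replicate 2 the adjusted p was 0.0689, and over all leave-one-out fits the log2 fold change lay between 0.95 and 1.72.

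Markers of other cells were also read in the CD4 libraries. The macrophage and monocyte list (8 genes, none at 0 throughout) summed to 58.4 and 94.7 CPM in WT CD4 and to 101 and 171 CPM in STAT3KO CD4 libraries. Of these genes Itgam, an integrin chain that activated T cells and NK cells can also carry, had 36.9 and 22.2 CPM in the libraries of WT CD4 and 80.3 and 86.0 CPM in those of STAT3KO CD4 T cells and rose (log2 fold change 1.49, adjusted p 0.00649 by edgeR). The genotypes overlapped in the other 7 genes, among them C1qa, with 1.60 and 13.3 CPM in the libraries of WT CD4 and 3.10 and 17.4 CPM in those of STAT3KO CD4 T cells, and Cd68, with 13.1 and 17.2 CPM in the libraries of WT CD4 and 8.85 and 13.8 CPM in those of STAT3KO CD4 T cells. The B cell list (5 genes) summed to 96.1 to 107 CPM in WT CD4 and 149 to 170 CPM in STAT3KO CD4, nearly all of it Cd22 (log2 fold change 0.68, adjusted p 0.0946). In the same list Cd79b rose, from 0.898 and 1.23 to 2.10 and 2.47 CPM (log2 fold change 1.10, adjusted p 0.0206), and Cd79a was at or below 0.274 CPM in these 4 libraries. The NK list overlapped between the genotypes (16.1 and 17.7 against 15.2 and 18.6 CPM), and its defining gene Ncr1 was at or below 0.25 CPM. The neutrophil list overlapped too (9.42 and 9.01 against 2.95 and 9.43 CPM), and the erythroid and dendritic cell lists were at or below 1.78 CPM. CD8 T cells were read by Cd8a and Cd8b1. Cd8a had 2.89 and 11.2 CPM in WT CD4 and 1.70 and 15.9955 CPM in STAT3KO CD4 libraries. Cd8b1 had 17.4 and 28.5 against 16.7 and 36.1 CPM in the same order. Both were highest in STAT3KO CD4 replicate 2, where Fasl was also highest among CD4 libraries (142 CPM). Both were lowest in STAT3KO CD4 replicate 1, where Fasl (83.4 CPM) stood above both WT CD4 libraries. The part of these cells, CD8 T cells included, in the Fasl difference was not tested.

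The gene lies on chromosome 1 (chr1:161780692-161788495 of mm10, minus strand). No other gene of GENCODE M21 shares exon bases with any of the 9 ligands. The sequences next to the start site are shown for Fasl and Tnfsf8, whose means moved most between the genotypes, because the deleted factor STAT3 binds the palindrome TTCNNNGAA. They are the 250 bases before the start in RefSeq (GRCm38.p6), 5′ to 3′ on the gene's strand; capitals would mark TTCNNNGAA, and none is present.

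Fasl, chr1:161788496-161788745, minus strand: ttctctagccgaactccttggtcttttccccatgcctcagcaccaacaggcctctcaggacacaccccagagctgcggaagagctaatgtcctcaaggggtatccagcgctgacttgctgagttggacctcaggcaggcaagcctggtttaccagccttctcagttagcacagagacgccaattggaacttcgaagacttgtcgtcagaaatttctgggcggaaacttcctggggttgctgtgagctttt
Tnfsf8, chr4:63861285-63861534, minus strand: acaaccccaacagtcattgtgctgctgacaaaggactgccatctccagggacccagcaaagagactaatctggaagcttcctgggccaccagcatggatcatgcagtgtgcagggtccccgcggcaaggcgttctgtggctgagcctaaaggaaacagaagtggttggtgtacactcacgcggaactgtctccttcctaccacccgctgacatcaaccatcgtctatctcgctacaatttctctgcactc

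Tnfsf8 encodes the ligand of CD30, a TRAF-binding receptor of activated lymphocytes. It had 272 and 333 CPM in the libraries of WT CD4 and 125 and 185 CPM in those of STAT3KO CD4 T cells. The groups did not overlap, and the STAT3KO mean was 51.4% of the WT mean. The log2 fold change was -0.96 (SE 0.27, 95% interval -1.59 to -0.33), and the adjusted p of 0.0621 by edgeR did not pass the threshold. It passed with DESeq2, with no filter on low counts and with only the 4 libraries compared. With the replicate number as a block it passed too (adjusted p 3.75e-05 by edgeR), so the call rests on the setting.

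Cd40lg, on the X chromosome (chrX:57212143-57224042 of mm10, plus strand), encodes CD40 ligand, the helper signal to B cells and dendritic cells. It had 161 and 141 CPM in the libraries of WT CD4 and 121 and 104 CPM in those of STAT3KO CD4 T cells. The STAT3KO libraries were lower without overlap. The log2 fold change was -0.42 (SE 0.13, 95% interval -0.73 to -0.11), and the adjusted p of 0.0860 did not pass the threshold with edgeR. DESeq2 called Cd40lg, and so did edgeR with the replicate number as a block (adjusted p 0.00993).

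Tnf, Lta and Ltb are neighbors on chromosome 17. Ltb (chr17:35194507-35196305, plus strand) is 3061 bases from Tnf (chr17:35199367-35202007, minus strand), and Tnf is 1157 bases from Lta (chr17:35203165-35205351, minus strand). Tnf encodes the family's founding inflammatory cytokine. It had 36.4 and 29.1 CPM in the libraries of WT CD4 and 29.1 and 33.4 CPM in those of STAT3KO CD4 T cells, which overlapped (log2 fold change -0.07, 95% interval -0.39 to 0.26, adjusted p 0.809). Lta, the soluble lymphotoxin, had 5.44 and 4.68 CPM in the libraries of WT CD4 and 5.65 and 6.12 CPM in those of STAT3KO CD4 T cells (0.22, 95% interval -0.40 to 0.84, adjusted p 0.660). It rested on 99 to 134 reads a library. Ltb had 188 and 180 CPM in the libraries of WT CD4 and 170 and 154 CPM in those of STAT3KO CD4 T cells (-0.18, 95% interval -0.62 to 0.26, adjusted p 0.594). The intervals of these 3 neighbors left room for changes of either sign.

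The motif TTCNNNGAA was present in the windows of Lta (2 matches) and Ltb (1 match), and in none of the other 6 ligands with a RefSeq window. Of 32841 RefSeq windows of the same length, 7.02% held it. Both windows are shown for the contrast with Fasl and Tnfsf8, with the matches in capitals. The motif is its own reverse complement, so both strands were read at once. A match in these letters is a description and no evidence of binding.

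Lta, chr17:35205352-35205601, minus strand: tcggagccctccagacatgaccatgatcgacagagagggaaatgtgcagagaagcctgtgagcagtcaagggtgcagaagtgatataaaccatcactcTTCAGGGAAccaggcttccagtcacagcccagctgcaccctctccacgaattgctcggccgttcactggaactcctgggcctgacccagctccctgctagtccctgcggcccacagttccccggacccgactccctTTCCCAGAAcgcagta
Ltb, chr17:35194257-35194506, plus strand: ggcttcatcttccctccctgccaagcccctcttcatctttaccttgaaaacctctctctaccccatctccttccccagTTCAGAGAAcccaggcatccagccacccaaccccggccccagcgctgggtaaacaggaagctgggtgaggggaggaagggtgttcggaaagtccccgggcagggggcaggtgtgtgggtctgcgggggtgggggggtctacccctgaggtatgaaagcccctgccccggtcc

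In the Lta window, the matches began 152 and 16 bases before the start site, and in the Ltb window 172 bases before it. Other letters searched on both strands were the AP-1 site TGANTCA, present in the window of Tnfsf14 alone of the 8 and in 6.75% of all windows, and the NF-κB site, present in Ltb alone and in 3.9% of all windows. The NFAT core GGAAA was in all 8 windows and in 55.6% of all windows, and it overlapped the Ltb match to the NF-κB site and 1 match to TTCNNNGAA in Lta.

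Tnfsf10, Tnfsf11 and Tnfsf14 were not called in CD4 T cells. Tnfsf10 encodes TRAIL, which binds death receptors, and had 39.6 and 31.0 CPM in the libraries of WT CD4 and 45.8 and 41.0 CPM in those of STAT3KO CD4 T cells (0.30 on the log2 scale, 95% interval -0.08 to 0.68, adjusted p 0.289). Tnfsf14 encodes LIGHT, a ligand of HVEM and of the lymphotoxin β receptor, and had 61.6 and 45.4 CPM in the libraries of WT CD4 and 63.8 and 47.7 CPM in those of STAT3KO CD4 T cells (0.06, 95% interval -0.44 to 0.56, adjusted p 0.896). In every group its replicate 1 was higher than its replicate 2, by 0.34 to 0.44 on the log2 scale.

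Tnfsf11 encodes RANKL, the cytokine that drives osteoclasts and dendritic cell survival. It had 50.6 and 56.5 CPM in the libraries of WT CD4 and 32.01 and 71.8 CPM in those of STAT3KO CD4 T cells, so the WT libraries lay between the STAT3KO libraries. The log2 fold change was -0.04 with a 95% interval from -1.17 to 1.08, the widest of the 9 ligands in this comparison. Leaving out STAT3KO CD4 replicate 1 gave 0.42, and leaving out WT CD4 replicate 2 gave 0.04.

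**Figure D2:**
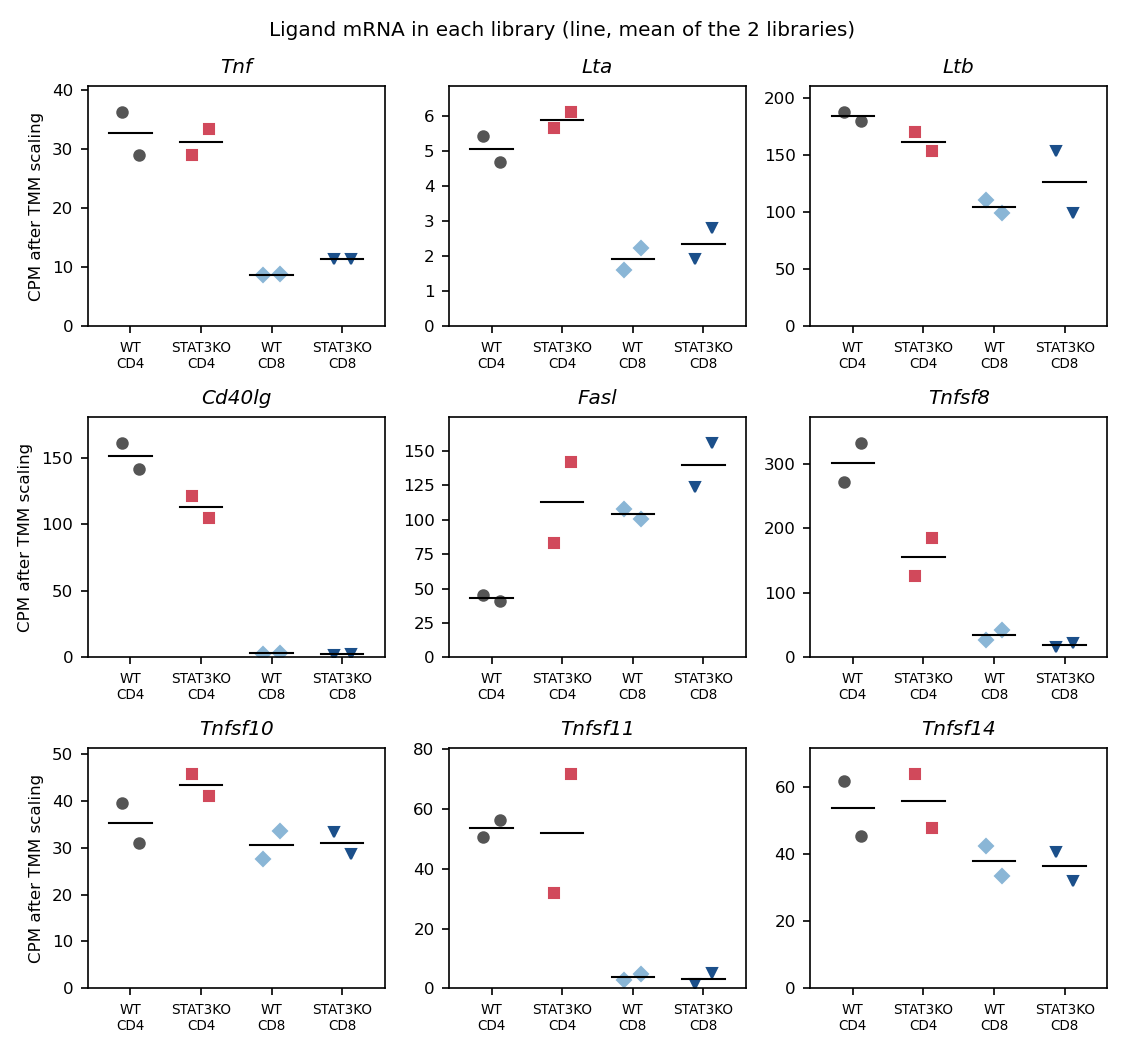
CPM after TMM scaling of each ligand in the 8 libraries; points are libraries, replicate 1 on the left, lines are means of 2, and each panel has its own axis from 0. Fasl rises from 45.5 and 40.8 CPM in WT CD4 to 83.4 and 142 CPM in STAT3KO CD4, while Tnfsf11 in STAT3KO CD4 is spread from 32.01 to 71.8 CPM.

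In CD8 T cells, none of the 9 ligands was called with edgeR without a block, where the background was 2.07% of all genes (1.34% higher, 0.732% lower). At an unadjusted p under 0.05 there were 2 ligands, Tnf and Tnfsf8, and DESeq2 called 1, Tnfsf8. The count of all genes at that unadjusted p is not given here, so these 2 have no background beside them. The median log2 fold change of the ligands was 0.02, beside -0.01 over all genes tested. The genotypes did not overlap for 4 of the 9 ligands and for 49.7% of all genes.

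Tnfsf8 had 27.2 and 41.8 CPM in the libraries of WT CD8 and 15.5 and 22.9 CPM in those of STAT3KO CD8 T cells. The groups did not overlap, and the STAT3KO mean stood at 55.6% of that in WT. The test gave a log2 fold change of -0.85 (SE 0.29, adjusted p 0.162 by edgeR). With the replicate number as a block the adjusted p was 0.000797 by edgeR. The values within the replicate numbers were -0.81 and -0.87, beside -1.11 and -0.85 in CD4 T cells.

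Tnf had 8.65 and 8.80 CPM in the libraries of WT CD8 and 11.4 and 11.4 CPM in those of STAT3KO CD8 T cells. The groups did not overlap, and the log2 fold change was 0.39 (SE 0.15, unadjusted p 0.0333, adjusted p 0.215 by edgeR). Fasl had 108 and 100 CPM in the libraries of WT CD8 and 124 and 156 CPM in those of STAT3KO CD8 T cells (0.43, SE 0.23, 95% interval -0.12 to 0.97, adjusted p 0.377). The Fasl libraries did not overlap either, and the difference did not pass the test.

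Cd40lg was low in CD8 T cells, at 2.85 and 3.03 CPM in WT and 2.07 and 2.75 CPM in STAT3KO (-0.28 on the log2 scale, adjusted p 0.493). Ltb had 110 and 99.3 CPM in the libraries of WT CD8 and 154 and 99.2 CPM in those of STAT3KO CD8 T cells (0.27, adjusted p 0.506). STAT3KO CD8 replicate 1 alone was high, and without it the log2 fold change was -0.08. The remaining 4 ligands overlapped between the genotypes. Lta lay between 1.60 and 2.80 CPM, Tnfsf10 between 27.5 and 33.6, Tnfsf11 between 1.35 and 5.05, and Tnfsf14 between 31.9 and 42.2 CPM over the 4 CD8 libraries, with adjusted p from 0.631 to 0.965.

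**Figure D3:**
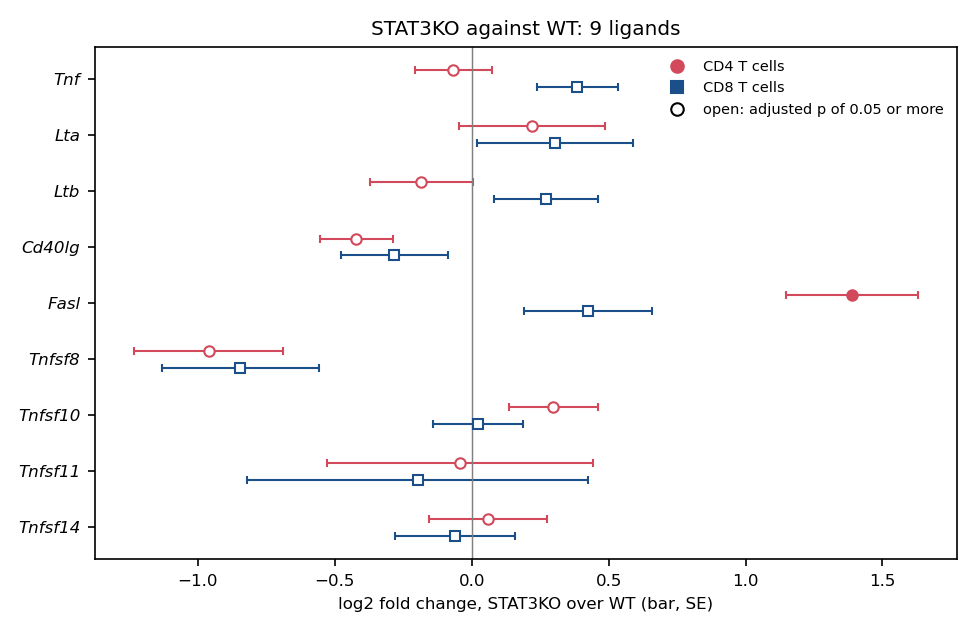
Log2 fold change of STAT3KO over WT (bars, SE of the edgeR fit on 2 libraries a group) for the 9 ligands in CD4 (circles) and CD8 T cells (squares); filled symbols have an adjusted p under 0.05. Only Fasl in CD4 T cells, at 1.39, is filled, and Tnfsf8 lies at -0.96 in CD4 and -0.85 in CD8 T cells.

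Whether the effect of STAT3 loss differed between the lineages was tested as an interaction. No ligand was called, and no gene of the 12428 was (0%), although 982 genes had an unadjusted p under 0.05 and DESeq2 called 188 genes, with no ligand among them. For Fasl the effect in CD8 minus that in CD4 was -0.96 on the log2 scale (SE 0.33, 95% interval -1.74 to -0.19, unadjusted p 0.0209, adjusted p 0.486 by edgeR). Fasl was the ligand with the lowest p of this test. For Tnfsf8 the difference was 0.11 with a 95% interval from -0.80 to 1.03, which leaves room for unequal effects.

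The receptors of these ligands were examined next, on the same cells. Of 13 listed receptors, 10 were tested. The list includes Btla, which binds the receptor HVEM (Tnfrsf14) and none of the 9 ligands. Btla is included in all receptor counts and medians given here. Cd40, Tnfrsf11a and Tnfrsf11b had at most 14 counts in a library and were filtered out. In CD4 T cells, 2 rose and 5 fell in STAT3KO, of the 10 tested, against a background of 11.6% of all genes (6.54% higher, 5.08% lower). The median log2 fold change of the 10 was -0.55 beside 0.02 over all genes. DESeq2 called the same 7. The count rested on the CD4 libraries. Without STAT3KO CD4 replicate 1, 1 rose and 0 fell, without STAT3KO CD4 replicate 2, 0 rose and 2 fell (Fas and Tnfrsf23), and without either WT CD4 library, 1 rose and 4 fell. In CD8 T cells, 0 were called by DESeq2 or by edgeR without a block (median -0.22, beside -0.01). The edgeR background there was 2.07% of all genes. At an unadjusted p under 0.05 there was 1, Btla, and the count of all genes at that p is not given here. With the replicate number as a block, edgeR called Btla.

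Fas, the death receptor for the Fas ligand, had 69.3 and 102 CPM in the libraries of WT CD4 and 23.2 and 29.3 CPM in those of STAT3KO CD4 T cells. It fell by 1.70 on the log2 scale (SE 0.25, adjusted p 0.00628 by edgeR), while its ligand Fasl rose in the same libraries. In CD8 T cells Fas had 23.6 and 33.5 CPM in WT and 24.6 and 19.2 CPM in STAT3KO libraries, which overlapped (-0.38, SE 0.25, adjusted p 0.470).

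Tnfrsf8 encodes CD30, the receptor of the Tnfsf8 product. It had 5.09 and 4.30 CPM in the libraries of WT CD4 and 10.8 and 12.5 CPM in those of STAT3KO CD4 T cells, and rose by 1.31 on the log2 scale (SE 0.20, adjusted p 0.00678). In CD8 T cells it had 9.64 and 10.9 CPM in WT and 8.83 and 11.5 CPM in STAT3KO libraries (-0.01, adjusted p 0.982).

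Btla, an immunoglobulin-type inhibitory receptor that binds HVEM, the LIGHT receptor, fell by 1.18 on the log2 scale in STAT3KO CD4 T cells (SE 0.18, adjusted p 0.00711), from 1092 and 1483 to 567 and 569 CPM. Tnfrsf23, a decoy receptor for TRAIL, fell by 1.66 (SE 0.28, adjusted p 0.0100), from 7.83 and 7.70 to 2.05 and 2.83 CPM. The other 3 called receptors, beyond the 4 with the largest changes, are named because the count is small. Tnfrsf1b, the TRAF-binding TNF receptor, rose by 0.56 (adjusted p 0.0283), Tnfrsf14 (HVEM) fell by 0.67 (adjusted p 0.0147), and Tnfrsf22, a decoy receptor for TRAIL beside Tnfrsf23 on chromosome 7, fell by 0.73 (adjusted p 0.0249). Tnfrsf22 and Tnfrsf23 are paralogs, so the split of their reads is uncertain. The interaction test of edgeR called 0 of the 10 receptors (lowest adjusted p 0.196, for Tnfrsf8). At an unadjusted p under 0.05 there were 7, beside 982 of all 12428 genes. They were the receptors called in CD4 T cells, and both tests use the CD4 libraries, so they are not independent. DESeq2 called 3 (Fas, Tnfrsf1b and Tnfrsf8), and its count over all genes is given with the interaction above.

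**Figure D4:**
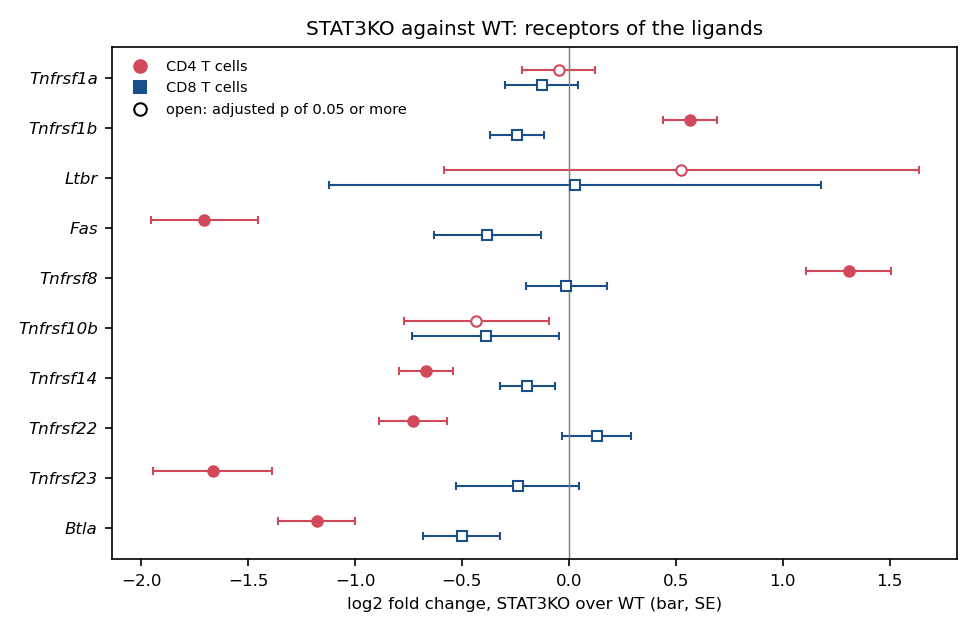
Log2 fold change of STAT3KO over WT (bars, SE of the edgeR fit) for the 10 tested receptors in CD4 (circles) and CD8 T cells (squares); filled symbols have an adjusted p under 0.05. In CD4 T cells Fas lies at -1.70 and Tnfrsf8 at 1.31, and no CD8 symbol is filled.

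The lineages were compared within each genotype. The genotype and the lineage comparisons share libraries, so their values are not independent. In WT cells, 7 of the 9 ligands differed between CD8 and CD4 T cells, 1 higher and 6 lower in CD8, against a background of 23.8% of all genes (12.2% higher, 11.6% lower). In STAT3KO cells, 5 of 9 differed, all lower in CD8, against 12.5% (5.84% higher, 6.67% lower). The median log2 fold change of the ligands was -1.40 in WT and -1.31 in STAT3KO cells, beside 0.00 over all genes in each.

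Cd40lg differed most among the ligands. Its CD8 libraries lay between 2.07 and 3.03 CPM and its CD4 libraries between 104 and 161 CPM. The log2 fold change of CD8 against CD4 was -5.68 in WT (SE 0.17, adjusted p 1.96e-05) and -5.54 in STAT3KO cells (SE 0.18, adjusted p 2.67e-05), both by edgeR. The mean in CD8 cells was 1.95% of that in CD4 cells in WT and 2.14% in STAT3KO. For comparison, Cd4 mRNA in the CD8 libraries was at 0.271% and 0.308% of its CD4 mean.

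Tnfsf11 had 2.72 and 4.67 CPM in WT CD8 against 50.6 and 56.5 CPM in WT CD4 libraries (log2 fold change -3.85, SE 0.58, adjusted p 0.00270). In STAT3KO cells it had 1.35 and 5.05 CPM in CD8 against 32.01 and 71.8 CPM in CD4 (-4.01, SE 0.59, adjusted p 0.00552). The groups were far apart although the libraries of a group spread widely. Tnfsf11 was higher in replicate 2 than in replicate 1 in every group, CD4 and CD8, as were Tnfsf8 and C1qa. In the CD8 libraries Cd4 mRNA was higher in replicate 2 too (1.04 and 6.61 CPM in WT CD8, 1.64 and 8.16 CPM in STAT3KO CD8). The part of other cells in these low CD8 levels was not tested.

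Tnfsf8 was lower in CD8 by 3.13 on the log2 scale in WT (SE 0.30, adjusted p 0.000390) and by 3.02 in STAT3KO cells (SE 0.30, adjusted p 0.00143). The CD8 libraries lay between 15.5 and 41.8 CPM and the CD4 libraries between 125 and 333 CPM. Tnf was lower by 1.91 in WT (SE 0.15, adjusted p 0.000201) and by 1.45 in STAT3KO cells (SE 0.15, adjusted p 0.00144), with 8.65 to 11.4 CPM in CD8 and 29.1 to 36.4 CPM in CD4 libraries.

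Lta was lower by 1.40 in WT (SE 0.28, adjusted p 0.00988) and by 1.31 in STAT3KO cells (SE 0.28, adjusted p 0.0220). It rested on 37 to 62 reads in a CD8 library. The WT call was lost without WT CD8 replicate 1 (adjusted p 0.0689), and the STAT3KO call without STAT3KO CD4 replicate 1 or 2 or STAT3KO CD8 replicate 1 (adjusted p up to 0.125). Ltb, with 110 and 99.3 CPM in WT CD8 against 188 and 180 CPM in WT CD4, was lower by 0.81 (SE 0.19, adjusted p 0.0192). That call was lost with any 1 of the 4 WT libraries left out (adjusted p up to 0.0893). In STAT3KO cells Ltb overlapped between the lineages (-0.36, adjusted p 0.279 by edgeR), and without STAT3KO CD8 replicate 1 the log2 fold change was -0.71. With the replicate number as a block, edgeR called Ltb there (adjusted p 0.0407).

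Fasl ran the other way. In WT cells it had 108 and 100 CPM in CD8 against 45.5 and 40.8 CPM in CD4 libraries, a fold of 2.42 (log2 fold change 1.27, SE 0.24, adjusted p 0.00752). In STAT3KO cells it had 124 and 156 CPM in CD8 against 83.4 and 142 CPM in CD4, which overlapped (0.31, SE 0.23, 95% interval -0.23 to 0.85, adjusted p 0.451). Without STAT3KO CD4 replicate 1 the latter value was -0.02, and without replicate 2 it was 0.75. The test of the change in this difference between the genotypes is the interaction given above.

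Tnfsf10 and Tnfsf14 were not called between the lineages by edgeR without a block. With the replicate number as a block, edgeR called Tnfsf14 in WT (adjusted p 0.00110) and in STAT3KO cells (0.000518). It also called Tnfsf10 in STAT3KO cells (0.0239) but not in WT (0.283). The values that follow are without a block. Tnfsf10 had a log2 fold change of -0.21 in WT (95% interval -0.59 to 0.17, adjusted p 0.415) and -0.48 in STAT3KO cells (95% interval -0.86 to -0.10, adjusted p 0.0988). Tnfsf14 had -0.50 in WT (95% interval -1.01 to 0.01, adjusted p 0.143) and -0.62 in STAT3KO cells (95% interval -1.13 to -0.11, adjusted p 0.112). Their CD8 libraries did not overlap the CD4 libraries for Tnfsf14 in WT or for either gene in STAT3KO cells, where 59.3% of all genes in WT and 58.3% in STAT3KO cells did not overlap.

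**Figure D5:**
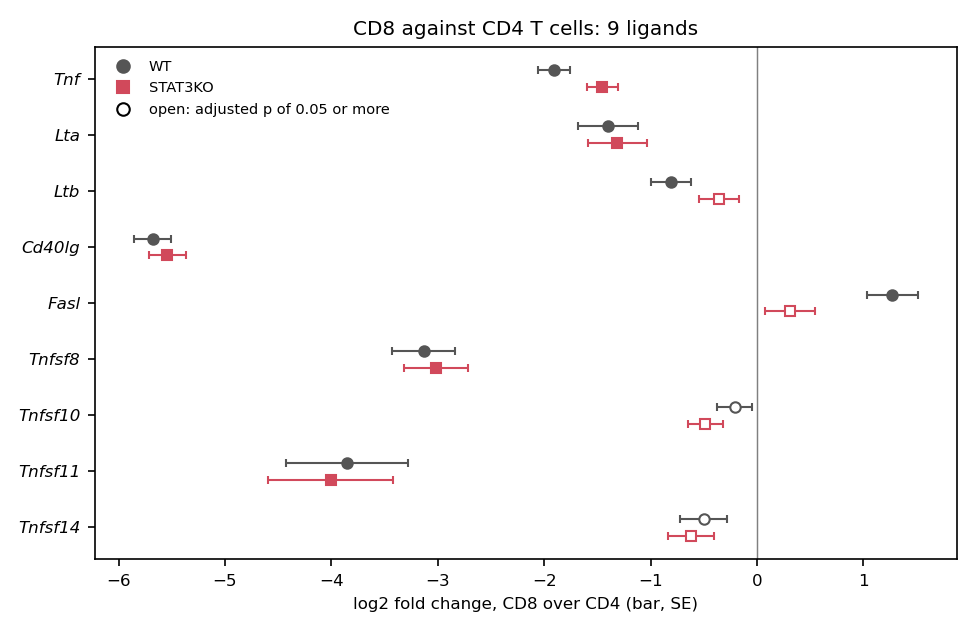
Log2 fold change of CD8 over CD4 T cells (bars, SE of the edgeR fit) for the 9 ligands in WT (circles) and STAT3KO (squares); filled symbols have an adjusted p under 0.05. Cd40lg is lowest at -5.68 and -5.54, and Fasl is the only ligand above 0, at 1.27 in WT and 0.31 in STAT3KO.

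Among the receptors, 2 were higher and 5 lower in CD8 than in CD4 T cells of WT, of the 10 tested (median log2 fold change -0.78 beside 0.00 over all genes). The background in WT was 23.8% of all genes (12.2% higher, 11.6% lower). In STAT3KO cells 0 were higher and 2 lower, against a background of 12.5% (5.84% higher, 6.67% lower). The 4 with the largest changes in WT were Btla (-2.28, SE 0.19), Tnfrsf23 (-1.78, SE 0.28), Fas (-1.59, SE 0.25) and Tnfrsf14 (-1.43, SE 0.13). In STAT3KO cells the called receptors were Btla (-1.61, SE 0.18) and Tnfrsf14 (-0.96, SE 0.13), and Fas was at -0.26 (SE 0.25). The receptor comparison of the lineages in WT and that of the genotypes in CD4 T cells share the WT CD4 libraries.

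Of 9 other ligands of the family 5 were tested, of 12 signaling genes below the receptors all 12, and of 9 genes of shedding and mRNA decay all 9. In each of these lists 0 members were called in either genotype comparison by edgeR. The background was 11.6% of all genes in CD4 and 2.07% in CD8 T cells. At an unadjusted p under 0.05 there were 2, 1 and 2 members of the lists in CD4 and 1, 0 and 3 in CD8 T cells, in the same order. The counts of all genes at that unadjusted p are not given here. DESeq2 called 1 in each lineage, the sheddase gene Adam10, which is named because it was the only one. Between the lineages, edgeR called 3 of the 12 signaling genes in WT and 3 in STAT3KO cells, all lower in CD8. They were Birc3, Traf1 and Traf3 in both genotypes. The background was 23.8% of all genes in WT (11.6% lower) and 12.5% in STAT3KO cells (6.67% lower). Birc3, an inhibitor of apoptosis that works with the TRAF adaptors, was lower by 0.87 in WT (SE 0.11, adjusted p 0.00126) and by 0.70 in STAT3KO cells (SE 0.11, adjusted p 0.00677). Traf1 was at -0.54 and -0.56, and Traf3 at -0.52 and -0.69 in the same order.

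Of the 9 genes of shedding and mRNA decay, edgeR called 3 in WT and 1 in STAT3KO cells, all lower in CD8. The background was 23.8% of all genes in WT and 12.5% in STAT3KO cells. Zfp36l1, which promotes decay of mRNAs with AU-rich elements, was lower in CD8 by 1.36 in WT (SE 0.17, adjusted p 0.00143) and by 1.16 in STAT3KO cells (SE 0.17, adjusted p 0.00604). Rc3h1 and Rc3h2, the Roquin genes, whose proteins promote decay of mRNAs with stem-loops, were lower in CD8 in WT (-0.41 and -0.77). In STAT3KO cells they were at -0.14 and -0.51 and were not called by edgeR (adjusted p 0.455 and 0.0940). DESeq2 called 5 genes of this list in WT (Rc3h1, Rc3h2, Zc3h12a, Zfp36 and Zfp36l1). In STAT3KO cells it called 3 (Rc3h2, Zc3h12a and Zfp36l1). The counts of all genes that DESeq2 called between the lineages are not given here. The interaction test called 0 genes of this list by edgeR, 0 by DESeq2 and 0 at an unadjusted p under 0.05. Of the other family ligands, edgeR called 1 of the 5 tested in each genotype, against the same backgrounds. Tnfsf15 was lower in CD8 in WT (-2.71, SE 0.59, adjusted p 0.0136), on 3 to 29 counts a library. Cd70 was lower in CD8 in STAT3KO cells (-3.26, SE 0.75, adjusted p 0.0298), on 4 to 70 counts.

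The tested genes whose pattern lay closest to each ligand were found by the root mean square (RMS) difference of centered log2 CPM over the 8 libraries, a description of 8 points that share depth and replicate effects. For Tnfsf8 they were Tnfrsf4 (RMS 0.29), which encodes the costimulatory receptor OX40, and Cxcr5 (0.30), the chemokine receptor of follicular helper T cells. For Tnfsf11 they were Tnfrsf19 (0.40) and Matn2 (0.46), and for Cd40lg C730014E05Rik (0.34) and Coro2b (0.52). These 3 ligands varied most, with an SD over the 8 libraries of 1.74, 2.26 and 3.01 on the log2 scale.

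For Fasl the closest genes were the histone gene H2bc8 (RMS 0.13) and Gm36738 (0.18), for Tnf Tspan32 (0.14) and AW011738 (0.16), and for Lta Slc22a15 (0.15) and Gdap10 (0.17). For Ltb they were 4930481A15Rik (0.11) and Dusp12 (0.12), for Tnfsf10 Cep131 and Arv1 (0.08 each), and for Tnfsf14 Mob3c (0.06) and Sh2b1 (0.07). The last 3 ligands varied least, by 0.26 to 0.38, so a small RMS there says little.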

How the data were processed

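RNA of sorted donor T cells was made into stranded mRNA libraries and sequenced single-end. The authors aligned the reads to mm10 with STAR and counted them per RefSeq gene with HTSeq, and they deposited raw read counts and RPKM values. Whether the counting used strand is not given in the sources used here. Groups were taken from the labels, whose growth and treatment fields describe other cells and were not used. The deposited counts were filtered by filterByExpr with a minimum count of 10, scaled by TMM and tested in edgeR 4.0.16 (R 4.3.3) with the quasi-likelihood test, a mean per group over all 8 libraries, and Benjamini-Hochberg adjustment over 12428 genes. SE were derived from the F statistic, and 95% intervals from it and its degrees of freedom. At 20171396 to 23282757 counts a library, 3 counts correspond to 0.129 to 0.149 CPM, for counting error only. Alternatives were DESeq2 1.42.0, RLE factors, total counts, no filter, the replicate number as a block, limma 3.58.1 on log2(RPKM + 1) and log2(RPKM + 0.1), the compared libraries alone, and each library left out. Named were all 9 ligands, up to 4 called genes of each list by size of change, and the 2 genes closest to each ligand in pattern. The rule for the members is by symbol alone, but the members and lists were chosen with earlier results of these data known. A gene planned for the marker lists was left out and is not reported here.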

Additional observations from a re-analysis of the deposited data

How the results depend on the processing

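With 2 libraries a group, each call rests on single libraries and on the setting. Over the single ligands, 338 of the values from other settings kept their direction and side of the threshold, 12 came to pass it and 1 changed sign (Tnfsf10 in CD8 T cells, STAT3KO over WT, -0.022 with total counts). With 1 library left out, 319 did so, 9 no longer passed, 3 came to pass and 29 changed sign; none of the sign changes was in a called value. The cause of these changes was not tested.

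For STAT3KO against WT in CD4 T cells, ligands called numbered 3 with DESeq2, 2 without a filter, 2 with only the 4 libraries compared, and 0 to 2 with a library left out (0 without WT CD4 replicate 2, 2 without either WT CD8 library). All genes called numbered 1847 with DESeq2, 1573 without a filter, 950 with only the 4 libraries compared and 412 to 1320 with a library left out. In CD8 T cells, 1 ligand was called with DESeq2. All genes called there numbered 885 with DESeq2, 454 without a filter, 20 with only the 4 libraries compared and 7 to 241 with a library left out. For the difference of the effects, 188 genes were called with DESeq2, 44 without a filter and 13 with limma on log2(RPKM + 1). For CD8 against CD4, the WT fit called 1937 genes with only the 4 libraries compared and 1575 to 2573 with a library left out, and the STAT3KO fit 457 to 1605 with a library left out.

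The labels do not say what the replicate numbers of the titles mark, and the deviations of replicate 1 from replicate 2 correlated between groups across genes (r 0.397 to 0.638, 12428 genes). With the replicate block, 3747 genes and 3 ligands were called for STAT3KO in CD4 (edgeR, Tnfsf8 with adjusted p 3.75e-05 and Cd40lg with 0.00993, besides Fasl), 2258 and 1 in CD8 (Tnfsf8, 0.000797), 403 and 0 for the difference, 5232 and 8 for the lineages in WT (Tnfsf14 added, 0.00110), and 3689 and 8 in STAT3KO (Ltb, Tnfsf10 and Tnfsf14 added, 0.0407, 0.0239 and 0.000518). Of the receptors it also called Btla in CD8 T cells of STAT3KO.

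The fold changes on the log2 scale that changed sign ranged, with a library left out, as follows. For STAT3KO in CD4, Tnf ranged from -0.22 to 0.10, Tnfsf11 from -0.74 to 0.42 and Tnfsf14 from -0.17 to 0.30. In CD8, Ltb ranged from -0.082 to 0.55, Tnfsf10 from -0.11 to 0.17, Tnfsf11 from -1.45 to 0.45 and Tnfsf14 from -0.25 to 0.12. For the difference, Lta ranged from -0.21 to 0.34, Cd40lg from -0.082 to 0.33, Tnfsf8 from -0.20 to 0.46, Tnfsf11 from -1.41 to 0.54 and Tnfsf14 from -0.36 to 0.10. Fasl in CD8 against CD4 of STAT3KO ranged from -0.024 to 0.75.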
